A study of Mus musculus with 7 samples.

Results

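The genes described here are 10 transcripts of T cells and cytotoxic lymphocytes, Cd3d, Cd3e, Cd3g, Cd4, Cd8a, Cd8b1, Gzma, Gzmb, Prf1 and Itgae, taken by name out of 19938 genes that the array measures with a single gene symbol. Each is read by 1 probe set, so no choice between probe sets was needed. They were followed over 7 one-colour Affymetrix arrays, each hybridised with total RNA from a piece of mouse intestine. The mice were 3 months old, of a mixed C57Bl6/129Sv strain, and either lacked Atg4b (knockout, KO, an enzyme that processes the LC3 and GABARAP proteins of autophagosomes) or were wild-type (WT). Colon after dextran sulfate sodium (DSS), a polymer that injures the colonic epithelium and was taken for 7 days before 3 days on water, was measured on 2 arrays from KO and 1 from WT. Untreated ileum and untreated colon each gave 1 KO array and 1 WT array. Of the 6 groups 5 have a single array, so precision is limited by how few arrays there are. The labels do not tie arrays to individual mice, and p-values therefore describe variation among the arrays, which may be technical.

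CD3 gamma, delta and epsilon, encoded by Cd3g, Cd3d and Cd3e, are the signalling chains that carry the T cell receptor to the surface of every T cell. CD4 and CD8 are co-receptors that bind MHC class II and class I, and CD8 occurs as an alpha-alpha pair or as an alpha-beta pair, the second needing Cd8b1. Perforin (Prf1) opens pores in a target cell through which the granzymes (Gzma, Gzmb), serine proteases stored in the same granules, enter and start cell death. Itgae encodes the integrin CD103, which with the beta7 chain binds E-cadherin and holds T cells between epithelial cells. The gut epithelium is lined with such intraepithelial lymphocytes, which are known to be more numerous in the small intestine than in the colon, to be largely CD8 positive and to carry granzymes.

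RefSeq promoter sequences (GRCm38.p6, 250 bases before to 50 bases after the start site) were found for 7 of the 10 genes. Those of 4 genes are shown because they set the granzymes, which differed between ileum and colon, beside the neighbours Cd3g and Cd3d, which lie head to head on chromosome 9 with start sites 1355 bases apart and gave unlike values on these arrays. Capitals mark matches to 5 short motifs searched on both strands, which are RUNX (TGTGGT), ETS (AGGAAG), AP-1 (TGANTCA, where N is any base), an E-box (CAGCTG) and a T-box site (GGTGTG).
Gzmb, chr14:56262285-56262584, minus strand: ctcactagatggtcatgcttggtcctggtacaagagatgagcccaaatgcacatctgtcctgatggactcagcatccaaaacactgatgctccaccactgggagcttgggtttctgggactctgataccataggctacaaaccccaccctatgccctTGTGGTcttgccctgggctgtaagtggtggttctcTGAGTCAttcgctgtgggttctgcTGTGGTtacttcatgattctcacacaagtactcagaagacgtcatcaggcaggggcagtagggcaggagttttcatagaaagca
Gzma, chr13:113100932-113101231, minus strand: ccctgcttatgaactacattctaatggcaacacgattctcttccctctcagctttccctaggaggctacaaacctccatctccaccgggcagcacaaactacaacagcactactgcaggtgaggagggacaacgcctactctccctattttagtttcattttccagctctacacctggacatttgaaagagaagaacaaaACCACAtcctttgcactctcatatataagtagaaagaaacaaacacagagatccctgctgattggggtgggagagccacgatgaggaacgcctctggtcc
Cd3g, chr9:44980382-44980681, minus strand: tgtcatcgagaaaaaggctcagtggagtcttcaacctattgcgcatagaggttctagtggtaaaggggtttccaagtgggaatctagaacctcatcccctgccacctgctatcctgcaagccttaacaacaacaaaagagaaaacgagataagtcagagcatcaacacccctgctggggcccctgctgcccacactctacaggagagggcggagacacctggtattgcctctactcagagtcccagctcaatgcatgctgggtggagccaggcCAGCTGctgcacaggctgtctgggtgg
Cd3d, chr9:44981536-44981835, plus strand: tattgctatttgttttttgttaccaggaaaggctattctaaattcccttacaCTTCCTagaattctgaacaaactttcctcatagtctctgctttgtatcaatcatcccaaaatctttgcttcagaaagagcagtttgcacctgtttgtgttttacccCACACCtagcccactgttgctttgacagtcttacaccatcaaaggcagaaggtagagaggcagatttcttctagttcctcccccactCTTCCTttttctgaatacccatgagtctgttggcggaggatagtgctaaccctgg
The Gzmb window held 2 RUNX matches and 1 AP-1 match, and the Gzma window held 1 RUNX match. Among 32851 promoter windows of the same length, 16.8% held the RUNX letters, 7.81% the AP-1 letters, 35.4% the ETS letters, 16.3% the E-box and 19.0% the T-box letters. The Cd3g window held 1 E-box, whereas the Cd3d window held 2 ETS matches and 1 T-box match. Of the other 3 windows, that of Cd8a had 1 E-box, that of Cd3e had 2 ETS matches and that of Prf1 had 1 RUNX match, 4 ETS matches and 1 E-box. These are matches of letters and no sites of binding, and no link between them and the array values was tested.

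On all 7 arrays together, the median intensity of the probe sets lay between 121.4 and 126.45. Atg4b had log2 intensities of 5.39 to 5.45 on the KO arrays and 7.35 to 7.72 on the WT arrays, as the labelled genotypes have it. Xist, an RNA of females, was at 12.16 to 12.55 on the 3 DSS arrays and at 5.19 to 5.52 on the 4 control arrays, whereas the Y-linked Eif2s3y ran the opposite way (4.28 to 4.39 on DSS arrays, 9.39 to 9.77 on control arrays). The labelled sex goes against this in the 3 WT arrays. Sex and DSS therefore cannot be told apart in any comparison with DSS colon, whereas ileum and control colon had the same sex pattern. Of the 10 genes, 9 had a mean below the median of all genes, and Cd3d was the lowest of them, at the 20.0 percentile of gene means. In pieces of whole tissue, fewer cells of a type and less RNA per cell cannot be told apart.

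Of the 10 genes, 6 were higher in control ileum than in control colon (limma, adjusted p under 0.05), by 1.23 to 2.85 log2 units, and none was lower. Over all genes, 5.94% were higher and 3.22% lower at that threshold. The median difference was 1.30 log2 units over the 10 genes and -0.02 over all genes. For 8 of the 10, both ileum arrays lay above both control colon arrays, which held for 25.8% of all genes.

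Both granzymes were higher in ileum, and Gzmb had the widest gap of the 10 genes. Gzmb, a protease that cleaves after aspartate and activates caspases, had log2 intensities of 9.09 in KO ileum and 8.76 in WT ileum, against 5.95 in KO control colon and 6.20 in WT control colon. Both ileum values stood far above both colon values, with a difference of 2.85 ± 0.17 log2 units (SE of the fit, 2 ileum against 2 colon arrays, adjusted p = 0.000233), or 7.19-fold with a 95% interval of 5.45 to 9.48. Gzma, the granzyme that cleaves after basic residues, stood at 7.84 in KO and 7.87 in WT ileum, against 5.95 in KO and 5.41 in WT control colon. The ileum values of Gzma nearly coincided while the colon values did not, and the difference was 2.18 ± 0.21 log2 units (adjusted p = 0.00167), or 4.53-fold (95% interval 3.22 to 6.39). Prf1, the pore former that granzymes depend on, did not follow them. It was at 6.43 in KO and 6.75 in WT ileum, against 6.52 in KO and 6.39 in WT control colon, so the groups overlapped. The difference of Prf1 was 0.13 ± 0.13 log2 units (95% interval -0.19 to 0.45, adjusted p = 0.629). Prf1 spanned only 0.36 log2 units over all 7 arrays, and whether its probe set can show a difference was not tested.

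**Figure D1:**
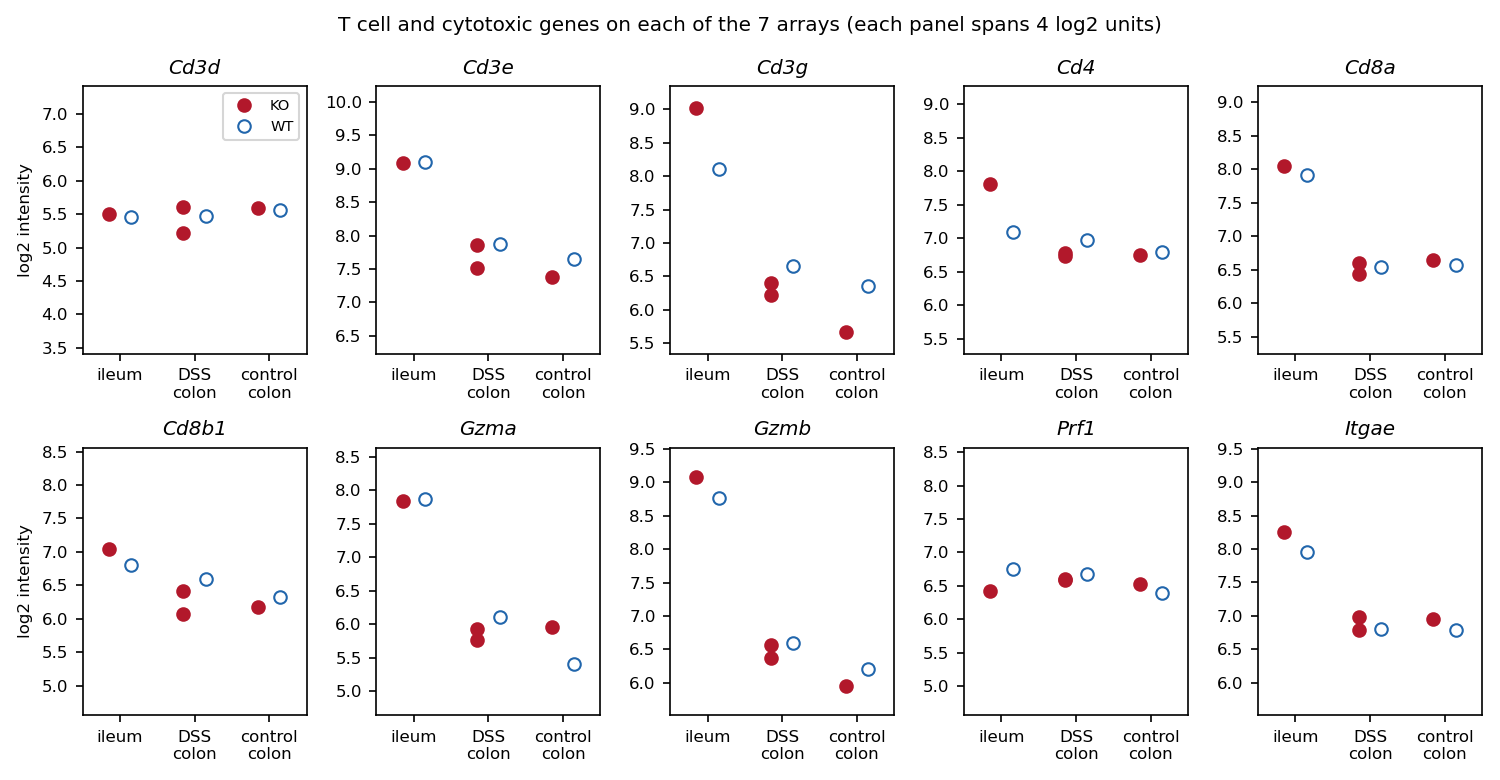
Log2 intensity (vertical axis) of each of the 10 genes on each array, by tissue and treatment (horizontal axis), with KO arrays as filled and WT arrays as open circles; every panel spans 4 log2 units but has its own position. For Cd3e, Cd3g, Cd4, Cd8a, Cd8b1, Gzma, Gzmb and Itgae the ileum arrays lie above all 5 colon arrays, whereas Cd3d and Prf1 are nearly level. The share of all genes with ileum above all 5 colon arrays was not counted.

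Among the CD3 chains, Cd3g and Cd3e were higher in ileum and Cd3d was not. Cd3g had 9.02 in KO ileum and 8.11 in WT ileum, against 5.67 in KO control colon and 6.36 in WT control colon. The 2 ileum arrays were thus 0.91 log2 units apart, the widest gap between KO and WT ileum among the 10 genes, and the colon arrays differed by 0.68 in the other direction. The difference between ileum and colon was 2.55 ± 0.35 log2 units (adjusted p = 0.00721), and without the KO control colon array it was 2.12 ± 0.43 and no longer passed (adjusted p = 0.0875). Cd3e was steadier, with 9.08 in KO and 9.10 in WT ileum, against 7.37 in KO and 7.64 in WT control colon, a difference of 1.58 ± 0.15 log2 units (adjusted p = 0.00163). Cd3d stayed between 5.22 and 5.61 on all 7 arrays, below the lower quartile of gene values, which was 5.71 to 5.87 by array. Its difference was -0.10 ± 0.15 log2 units (95% interval -0.46 to 0.26, adjusted p = 0.756). Whether a signal this low can show a difference was not tested.

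Of the 3 co-receptor genes, all had both ileum arrays above both control colon arrays, and Cd8a alone passed the threshold. Cd8a, the chain shared by both forms of CD8, was at 8.05 in KO and 7.91 in WT ileum, against 6.64 in KO and 6.57 in WT control colon. This gap of 1.38 ± 0.12 log2 units was far wider than the spread within either tissue (adjusted p = 0.00108). Cd8b1, found only in the alpha-beta form, had 7.05 in KO and 6.80 in WT ileum, against 6.17 in KO and 6.33 in WT control colon, and the difference of 0.67 ± 0.19 did not pass (95% interval 0.23 to 1.12, adjusted p = 0.0832). Cd4 had 7.81 in KO ileum but 7.09 in WT ileum, against 6.75 in KO and 6.80 in WT control colon. The value of Cd4, 0.68 ± 0.23 log2 units (adjusted p = 0.144), rested largely on the KO ileum array, since ileum minus colon was 1.06 within KO and 0.29 within WT. The 3 co-receptor probe sets were not compared in level with each other, and the difference between their gaps was not tested.

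Itgae, the CD103 integrin chain, was higher in ileum on both arrays, with 8.25 in KO and 7.96 in WT ileum, against 6.96 in KO and 6.79 in WT control colon. The difference was 1.23 ± 0.12 log2 units (adjusted p = 0.00212). Among the 6 genes that passed, ileum minus colon was 3.13 within KO and 2.56 within WT for Gzmb, 3.35 and 1.76 for Cd3g in the same order, and 1.89 and 2.47 for Gzma. Cd3e (1.71 within KO, 1.45 within WT), Cd8a (1.41 within KO, 1.34 within WT) and Itgae (1.29 within KO, 1.17 within WT) gave closer pairs. In a fit to the 4 control arrays alone, Cd4 and Cd8b1 passed as well (adjusted p = 0.0329 and 0.0159). Cd4 also passed without the WT ileum array, at 1.11 ± 0.15 log2 units (adjusted p = 0.0214). Taken against the mean of 10 pan-leukocyte genes on each array, Cd8a (0.94 ± 0.34, adjusted p = 0.0700) and Itgae (0.79 ± 0.34, adjusted p = 0.155) no longer passed, a scaling that moves the median of all genes to -0.46. In that scaling the fit gave the 10 genes the same SE, against 0.12 for Cd8a and for Itgae in the main fit. The wider error as well as the smaller difference therefore enters these adjusted p-values.

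Other genes of the T cell pathway were read from lists, none of which includes the 10 genes. Of 13 further genes of the T cell receptor complex and its signalling, 4 were higher in ileum and none lower. They were Cd96, an adhesion receptor of T and NK cells (1.66 ± 0.25 log2 units), the adaptors Fyb (0.92 ± 0.11) and Lat (0.76 ± 0.11), and the adaptor Skap1 (0.58 ± 0.11). Il7r, the receptor for interleukin 7, stood at 1.19 ± 0.31 and did not pass (adjusted p = 0.0707). The list median was 0.41, with 11 of 13 values positive. Cd2 (-0.47 ± 0.25) and Ptprcap (-0.11 ± 0.12) were negative and Cd247 was nearly level (0.08 ± 0.11), and none of them passed. Of 15 genes linked to intraepithelial lymphocytes 3 were higher in ileum, Ccr9, the receptor that directs T cells to the small intestine (2.22 ± 0.26), the adhesion molecule Jaml (0.93 ± 0.17) and Itgb7, the beta7 partner of CD103 (0.77 ± 0.12). Of 20 other genes of cytotoxic effector function 3 were higher, Tnfsf10, the death ligand TRAIL (2.19 ± 0.34), the granule membrane protein Nkg7 (1.97 ± 0.20) and cathepsin W, Ctsw (1.22 ± 0.11). The list median was 0.01, and the other granzymes on that list, Gzmc to Gzmg, Gzmk, Gzmm and Gzmn, did not pass. Among 13 genes of helper and regulatory CD4 T cells none was higher and 1 was lower, Ikzf2, a transcription factor also made by other cells (-1.09 ± 0.23), while Foxp3, which defines regulatory T cells, stood at 0.07 ± 0.13 (adjusted p = 0.796). Of 8 NK and innate lymphoid genes 1 was higher, Il2rb, a receptor chain for interleukins 2 and 15 (0.96 ± 0.21). Over all genes 5.94% were higher and 3.22% lower, and the lists with 1 gene called are not far from these shares.

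Some ligands that draw or hold T cells differed widely. Of 14 genes of T cell recruitment and retention 5 were higher in ileum and none lower, with Ccl25, the ligand of Ccr9, at 5.57 ± 0.10 log2 units. The butyrophilin-like genes Btnl2 and Btnl1 were both higher too. The 95% interval of the Btnl2 difference was 3.54 to 4.46 log2 units, and Btnl1 differed by 3.07 ± 0.42. The chemokines Cxcl9 (2.85 ± 0.24) and Ccl5 (2.74 ± 0.34) completed these 5. Ccl25 had log2 intensities of 12.15 in KO and 11.91 in WT ileum, against 6.59 in KO and 6.33 in WT control colon, with no overlap. Il15, a survival factor of intraepithelial lymphocytes, was at 0.29 ± 0.16 and did not pass (adjusted p = 0.345). None of the 4 measured granzyme inhibitors and MHC class I genes passed in either direction.

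Markers of other cells moved in part with the tissue. None of the 10 pan-leukocyte genes passed between ileum and colon, though all 10 values were positive with a median of 0.43, and the mean of that list was 8.83 in KO and 8.49 in WT ileum, against 8.38 in KO and 8.06 in WT control colon. Of 12 macrophage and dendritic cell markers 4 were higher, with Itgam at 1.58 ± 0.13 and the dendritic cell receptor Clec9a at 1.00 ± 0.15, and dendritic cells can carry Cd8a and Itgae too. Of 10 B and plasma cell markers 2 were higher, Jchain (1.09 ± 0.17) and Mzb1 (1.08 ± 0.18), both of plasma cells. Most of that list went the other way, with 3 of 10 values positive and a median of -0.29. None of the 6 neutrophil markers passed. None of 8 smooth muscle markers passed either, though all 8 values were negative with a median of -0.68, and the mean of that list was 10.87 in KO and 11.11 in WT ileum, against 11.65 in KO and 11.70 in WT control colon. Of 8 epithelial markers 2 were higher in ileum, the brush border gene Vil1 (1.28 ± 0.10) and Cdh17 (0.66 ± 0.10). The part of these cells in the result was not tested.

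**Figure D2:**
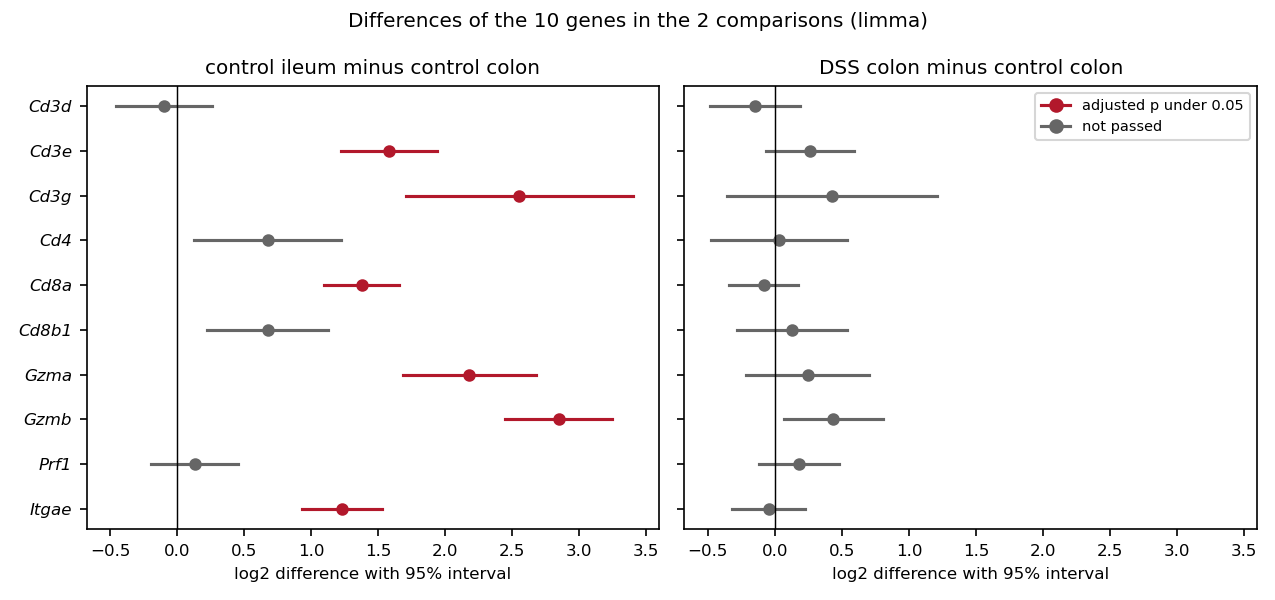
Log2 differences (horizontal axis) with 95% intervals for the 10 genes (vertical axis), for control ileum minus control colon on the left and DSS colon minus control colon on the right; red marks an adjusted p under 0.05. On the left 6 of 10 genes pass, up to 2.85 for Gzmb, and on the right none passes, with values from -0.15 to 0.44.

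After DSS, no change in the 10 genes was detected. None of the 10 passed in either direction between DSS colon and control colon (3 against 2 arrays, limma, adjusted p under 0.05), and 1 had an unadjusted p under 0.05. At this threshold, 7.20% of all genes rose after DSS and 3.43% fell. The differences of the 10 ran from -0.15 to 0.44 log2 units with a median of 0.15, against -0.01 over all genes. In 2 of the 10, Gzmb and Prf1, all 3 DSS arrays lay above both control arrays, a pattern seen in 22.1% of all genes.

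Gzmb was the gene with the widest difference. It had 6.37 and 6.57 in KO DSS colon and 6.59 in WT DSS colon, against 5.95 in KO and 6.20 in WT control colon. The gap of 0.44 ± 0.15 log2 units, 1.35-fold with a 95% interval of 1.05 to 1.75, did not pass over all genes (adjusted p = 0.129). In a fit to the colon arrays alone the gap of Gzmb was 0.46 ± 0.12 and did not pass either (adjusted p = 0.0795). Gzma had 5.92 and 5.75 in KO DSS colon and 6.11 in WT DSS colon, against 5.95 in KO and 5.41 in WT control colon. The WT pair of Gzma was apart and the KO arrays were not, and the difference over both was 0.24 ± 0.19 log2 units (95% interval -0.21 to 0.70, adjusted p = 0.496). Prf1 read 6.60 and 6.59 in KO DSS colon and 6.67 in WT DSS colon, against 6.52 in KO and 6.39 in WT control colon, 0.18 ± 0.12 log2 units (adjusted p = 0.439). For Prf1 the interval, -0.12 to 0.48, has its upper end at 1.39-fold.

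The T cell receptor chains gave the same picture. Cd3e was at 7.86 and 7.51 in KO DSS colon and 7.87 in WT DSS colon, against 7.37 in KO and 7.64 in WT control colon, so the groups overlapped, and its difference was 0.26 ± 0.14 (95% interval -0.07 to 0.59, adjusted p = 0.293). Cd3g was at 6.41 and 6.22 in KO DSS colon and 6.66 in WT DSS colon, against 5.67 in KO and 6.36 in WT control colon. Its difference of 0.43 ± 0.33 had an interval of -0.36 to 1.21, the widest of the 10. In a fit to the colon arrays alone, where the ileum arrays do not enter the spread, Cd3g was at 0.50 ± 0.14 and did not pass (adjusted p = 0.0898). Cd3d read 5.61 and 5.22 in KO DSS colon and 5.47 in WT DSS colon, against 5.60 in KO and 5.57 in WT control colon, -0.15 ± 0.14 (95% interval -0.48 to 0.18).

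The co-receptors and the integrin were nearly level. Cd8a read 6.60 and 6.44 in KO DSS colon and 6.54 in WT DSS colon, against 6.64 in KO and 6.57 in WT control colon, and its interval of -0.34 to 0.17 was the narrowest of the 10. Cd8b1 ranged from 6.07 to 6.59 over the 3 DSS arrays and stood at 6.17 in KO and 6.33 in WT control colon, 0.13 ± 0.17 log2 units (95% interval -0.29 to 0.54). Cd4 lay between 6.74 and 6.97 on the 3 DSS arrays, against 6.75 in KO and 6.80 in WT control colon, 0.03 ± 0.21 (95% interval -0.47 to 0.54). Itgae had 6.78 and 6.98 in KO DSS colon and 6.80 in WT DSS colon, against 6.96 in KO and 6.79 in WT control colon, -0.05 ± 0.11 (95% interval -0.32 to 0.23). These 4 overlapped between DSS and control colon, and a p that misses the threshold does not show that the groups were alike.

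**Figure D3:**
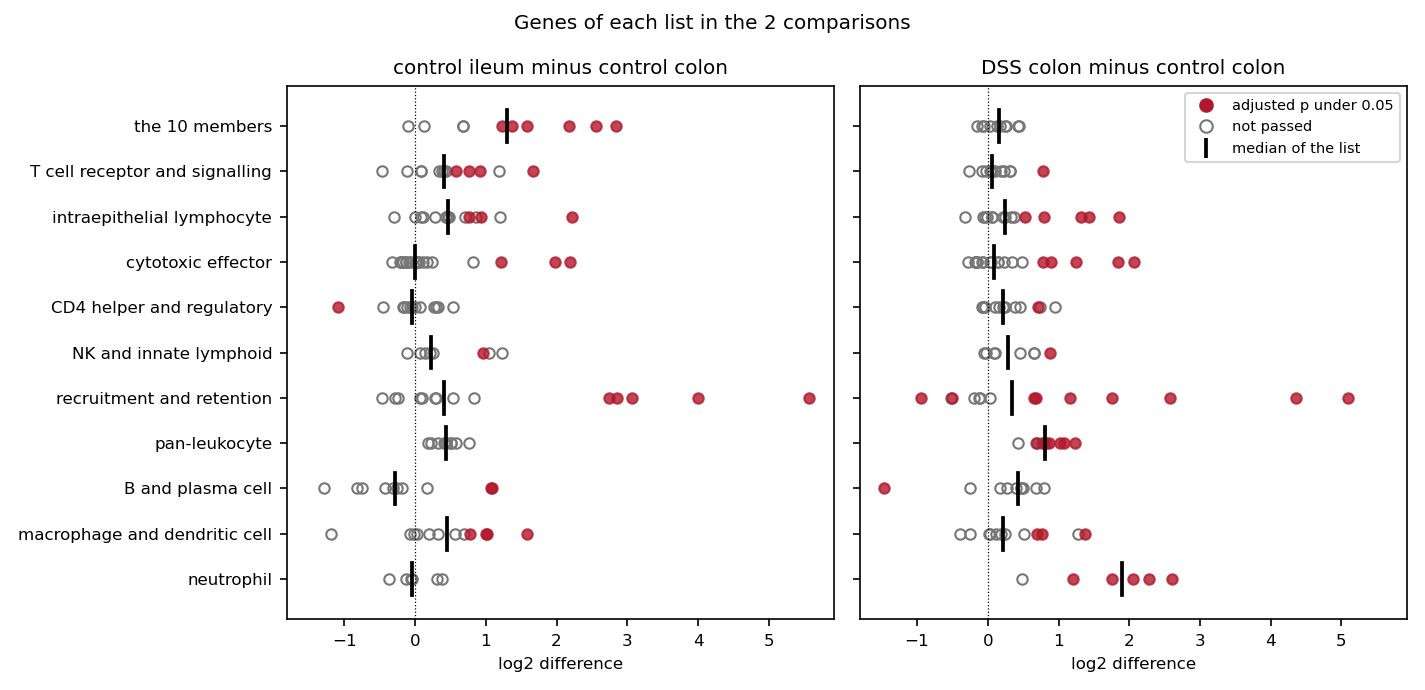
Log2 differences (horizontal axis) of the genes of 11 lists (vertical axis) for control ileum minus control colon on the left and DSS colon minus control colon on the right; each circle is a gene, filled red where its adjusted p is under 0.05, and the black bar is the list median. The 10 T cell and cytotoxic genes have a median of 1.30 on the left and 0.15 on the right, while neutrophil markers have -0.05 on the left and 1.90 on the right.

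Some genes of the other lists did differ between DSS colon and control colon, where DSS and sex cannot be told apart. Of the 14 recruitment and retention genes 7 rose and 2 fell. The ligands of Cxcr3, a chemokine receptor of activated T cells, rose most, Cxcl9 by 5.09 ± 0.23 log2 units, Cxcl10 by 4.36 ± 0.17 and Cxcl11 by 2.58 ± 0.24, while Cxcr3 itself was at -0.11 and did not pass (adjusted p = 0.685). Cxcl9 had 11.58 and 11.77 in KO DSS colon and 12.01 in WT DSS colon, against 7.00 in KO and 6.34 in WT control colon. Ccl5 (1.76 ± 0.32), Btnl2 (1.17 ± 0.18), Il15ra (0.69 ± 0.10) and Madcam1, the vascular ligand for gut-homing lymphocytes (0.65 ± 0.15), rose too, while the survival cytokines Il15 (-0.95 ± 0.14) and Il7 (-0.51 ± 0.10) fell.

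In the cytotoxic effector list 5 of 20 genes rose, Tnfsf10 (2.07 ± 0.31), Ifng, the interferon made by T and NK cells (1.84 ± 0.31), the granule proteoglycan Srgn (1.25 ± 0.24), and Unc13d (0.89 ± 0.15) and Stx11 (0.78 ± 0.11), which serve granule release. Ifng had 7.08 and 6.94 in KO DSS colon and 8.19 in WT DSS colon, against 5.64 in KO and 5.63 in WT control colon, with no overlap. Srgn, Unc13d and Stx11 are also used by myeloid cells, and Tnfsf10 by epithelial cells. Of the 15 intraepithelial lymphocyte genes 5 rose, Fcer1g (1.85 ± 0.36), Tyrobp (1.43 ± 0.24), Cd69 (1.31 ± 0.22), Gpr18 (0.79 ± 0.16) and Itgb7 (0.53 ± 0.11), of which Fcer1g and Tyrobp are adaptors of myeloid cells as well. Of the 13 further T cell receptor and signalling genes 1 rose, Fyb (0.77 ± 0.10), an adaptor that myeloid cells share. Among 13 helper and regulatory genes 1 rose, the inhibitory receptor Ctla4 (0.71 ± 0.10). Il2ra was at 0.95 ± 0.37 and Gata3 at 0.74 ± 0.22, neither of which passed (adjusted p = 0.167 and 0.0895), and Foxp3 was at 0.16 ± 0.12. Of 8 NK and innate lymphoid genes 1 rose, Il2rb (0.88 ± 0.19). Over all genes 7.20% rose, and the lists with 1 such gene are not far from that share.

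**Figure D4:**
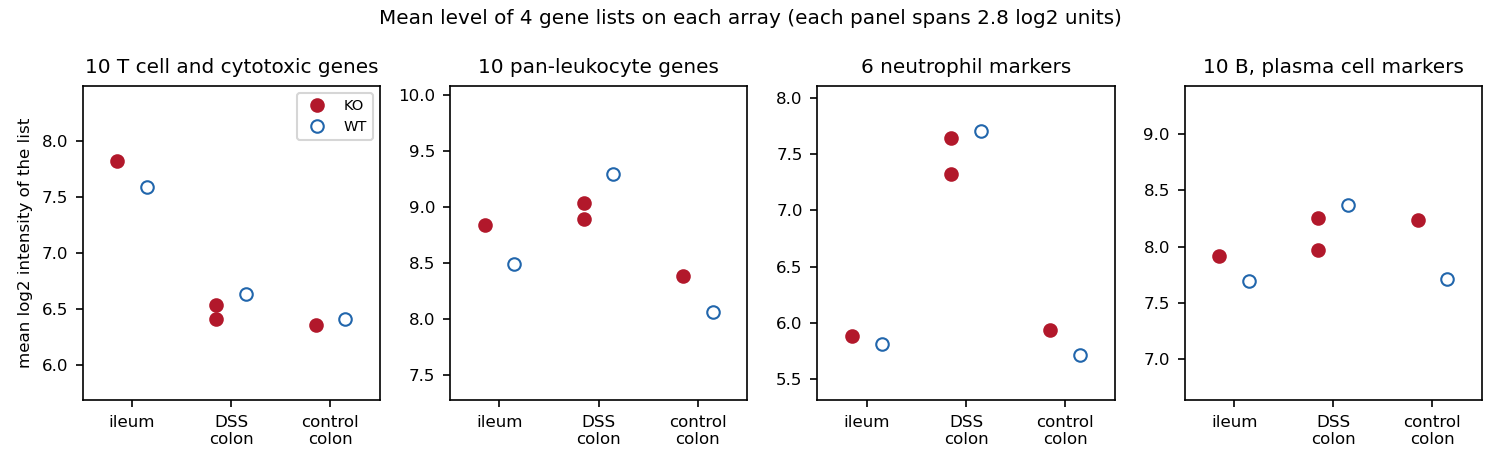
Mean log2 intensity (vertical axis) of 4 gene lists on each array, by tissue and treatment (horizontal axis), with KO arrays filled and WT arrays open; every panel spans 2.8 log2 units. The T cell and cytotoxic mean is 6.41 to 6.63 in DSS colon and 6.36 to 6.41 in control colon, whereas the neutrophil mean is 7.32 to 7.71 in DSS colon and 5.71 to 5.94 in control colon.

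Markers of some other leukocytes were higher in DSS colon. Of the 10 pan-leukocyte genes 6 rose, among them Itgb2 (1.24 ± 0.20) and Ptprc, which encodes CD45 (1.07 ± 0.22), and the list mean was 8.89 and 9.04 in KO DSS colon and 9.29 in WT DSS colon, against 8.38 in KO and 8.06 in WT control colon. Of 6 neutrophil markers 5 rose, led by S100a9 (2.61 ± 0.28) and S100a8 (2.28 ± 0.18). Of 12 macrophage and dendritic cell markers 3 rose, Itgam most (1.37 ± 0.12). Of 10 B and plasma cell markers none rose and Jchain fell (-1.46 ± 0.16), though 8 of the 10 values were positive with a median of 0.43. When each array was scaled by its pan-leukocyte mean, Cd3d (-0.99), Cd4 (-0.81), Cd8a (-0.92), Cd8b1 (-0.71), Prf1 (-0.66) and Itgae (-0.89) passed as lower in DSS colon, against a median of -0.85 over all genes in that scaling. The fit in that scaling gave the 10 genes the same SE, 0.31. Smooth muscle markers were lower in DSS colon in 3 of 8 cases, with a list mean of 11.05 and 10.04 in KO DSS colon and 9.46 in WT DSS colon, against 11.65 in KO and 11.70 in WT control colon, while none of 8 epithelial markers passed. The part of sex, muscle content and leukocyte mix in the values of the 10 genes was not tested.

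Set in order, control ileum was highest for the 6 genes above and also for Cd4 and Cd8b1, and both colon conditions lay below it. The share of all genes with ileum above both colon conditions was not counted, so this order cannot be weighed against it. In DSS colon against control ileum the same count, 6 of 10, was lower, by 1.28 log2 units for Itgae to 2.41 for Gzmb, and none was higher. Over all genes 7.02% were lower in that comparison. Gzmb was lower by -2.41 ± 0.15 (adjusted p = 0.000274) and Cd8a by -1.46 ± 0.11 (adjusted p = 0.000491). Cd4 (-0.64 ± 0.21, adjusted p = 0.104) and Cd8b1 (-0.55 ± 0.17, adjusted p = 0.0935) did not pass. Between DSS colon and control colon, the neighbours in this order, the arrays overlapped for 8 of the 10 genes, and for Gzmb and Prf1 they did not overlap but the adjusted p missed the threshold. This comparison shares its arrays with both comparisons above.

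No difference by genotype passed in these genes. With all conditions fitted jointly (4 arrays of KO against 3 of WT), none of the 10 was called, none had an unadjusted p under 0.05, and 0.00502% of all genes were called, Atg4b alone. The KO minus WT difference ran from -0.16 ± 0.11 log2 units for Cd3e to 0.17 ± 0.10 for Itgae (adjusted p = 0.989 for both), and its median was -0.01 over the 10 genes and over all genes. Within tissues, as values with no test, KO minus WT ran from -0.32 (Prf1) to 0.91 (Cd3g) in ileum. It ran from -0.68 (Cd3g) to 0.54 (Gzma) in control colon, and from -0.35 (Cd8b1) to 0.08 (Itgae) after DSS. The sign was positive for 7 of 10 genes in ileum, 5 in untreated colon and 1 in colon after DSS. Each of these counts rests on 1 WT array, and the genes are not independent of each other. The share of positive signs over all genes was not counted. The KO effect in DSS colon against that in controls, tested as an interaction, passed for none of the 10 and for 0% of all genes, and 639 genes, none of them among the 10, had an unadjusted p under 0.05. The widest interaction was that of Cd4 at -0.55 ± 0.31 log2 units (95% interval -1.32 to 0.22).

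Across the array, the genes whose pattern over the 7 arrays was most like the mean of the 10 were Slc27a4 (r = 0.996), Mcu and Igsf23 (0.994 each), Zdhhc9, Fndc10, Nkg7, Dgat1, Suox, Lypla1 and Tmem86b (Pearson's r of 0.992 or more over 7 arrays, among 6601 genes ranked). Nkg7, a granule protein of cytotoxic lymphocytes, is a lymphocyte gene, and Slc27a4 and Dgat1 are known for the uptake and esterification of fatty acids. These r values describe 7 arrays that fall into 2 of ileum and 5 of colon. For single genes the closest were Vmp1 for Gzmb (0.997), Bid for Gzma (0.995), Apoa1 for Cd8a (0.998), Adap1 for Cd3e (0.994), Tjap1 for Cd3g (0.990), Pcgf6 for Cd4 (0.988), Bpnt1 for Cd8b1 (0.984) and Sptssa for Itgae (0.993). Cd3d and Prf1 had weaker best matches, Guca2a (0.862) and Pidd1 (0.859).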

How the data were processed

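RNA was purified with the RNeasy kit and biotin-labelled using Affymetrix's Sense Target kit, according to the labels' protocols. The authors deposited 1 linear intensity per probe set and array for 35512 probe sets, between 10.4 and 22236.4, and the summarisation and normalization behind them are not given in the sources used here. Log2 of each intensity was taken, with no further scaling. The platform annotation gives 1 gene symbol to 21789 probe sets, several to 1621 and none to 12102, and the brightest probe set of each gene was kept, leaving 19938 genes. Limma 3.58.1 (R 4.3.3) was fitted to all genes with condition (ileum, control colon, DSS colon) and genotype as terms, p-values adjusted by Benjamini-Hochberg across the whole table, with 0.05 as the threshold, and a second model added the interaction of genotype and DSS. The labelled sex is the same contrast as that interaction. Errors marked ± are standard errors of the fit, and the script was tested on simulated data. The 10 genes and 14 gene lists were chosen with earlier results of these data known. Named genes are the 10, up to 4 per list with the largest difference, and the genes most alike. Further list genes that passed or define a cell type (Skap1, Itgb7, Ccl5, Il15, Stx11, Btnl2, Il15ra, Madcam1, Il7, Foxp3, Cxcr3, Ptprc, Il2rb and others) were named after their values were seen. So were Cd2, Ptprcap and Cd247, which did not follow their list. Alternatives were quantile normalization, centring, leaving out dim genes, testing or averaging all probe sets, an offset of 32 before log2, a variance trend with robust fit, a 6-group model, the colon or control arrays alone, scaling by pan-leukocyte genes and leaving out each array. Promoter sequences are RefSeq's.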

Additional observations from a re-analysis of the deposited data

Results flagged for a closer look

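Gzma in DSS colon against control colon differed in sign between the genotypes, with the KO values small beside the WT value. The difference was -0.028 and -0.19 log2 units for the KO DSS arrays against the KO control colon, and 0.70 for the WT pair. The interaction of genotype and DSS for Gzma was -0.53 ± 0.28 log2 units in limma and did not pass (adjusted p = 1.00), and the WT value rests on 1 array against 1, the WT control colon being the lowest of the 7 arrays for this gene at 5.41.

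Prf1 in ileum against control colon was at -0.094 within KO and 0.36 within WT, each from 1 array against 1. The difference between the genotypes was not tested.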

How the results depend on the processing

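The count of the 10 genes called was 6 for ileum against colon, 0 for DSS against control colon and 6 for DSS colon against ileum. The count of 0 held in each alternative but one. When arrays were scaled by the pan-leukocyte mean, 6 genes were called lower in DSS colon, and 15152 of all genes were called lower with them. Of these 6, Cd4 (-0.81), Cd8b1 (-0.71) and Prf1 (-0.66) had been positive in the main fit. Cd3e (-0.58), Cd3g (-0.41), Gzma (-0.60) and Gzmb (-0.40) turned negative as well but did not pass. That scaling lowered the median of all genes to -0.85 and that of the 10 genes to -0.69, and its fit gave the 10 genes the same SE, 0.31. How far the 6 calls come from the scaling or from the leukocyte mix was not tested. In ileum against colon the count was 4 in that scaling, 8 in control arrays alone and 5 to 7 without 1 array. In DSS colon against ileum it was 8 in that scaling and 7 without the WT ileum. None of the 10 was called for genotype or the interaction under any alternative run. Over all genes, 1826 were called for ileum against colon, 764 in the 6-group model, 2595 in control arrays alone, and 660, 812, 709 and 1003 without the KO colon, WT colon, KO ileum and WT ileum. For DSS 2120 were called, 297 in the 6-group model, and 183, 216, 526, 800 and 3549 without the KO colon, WT colon, WT DSS, KO DSS replicate 2 and KO DSS replicate 1. The interaction called 279 genes without KO DSS replicate 2 and 18 without replicate 1, and in the pan-leukocyte scaling it called 15 and genotype 17. The split of calls was 1184 higher and 642 lower for ileum, against 1074 and 928 under quantile normalization and 397 and 1012 in the pan-leukocyte scaling. It was 1436 and 684 for DSS, against 1200 and 1112 under quantile normalization and 1159 and 961 after centring, where the cause was not tested.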
